A study of Coturnix japonica with 4 samples.

Results

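The 10 genes examined here mark smooth muscle cells and pericytes, the contractile and supporting cells of the vessel wall, and were read in embryonic skin of Japanese quail (Coturnix japonica). The genes were chosen by name: MYH11, ACTA2, TAGLN, CNN1, SMTN and LMOD1 of the contractile apparatus, the regulator MYOCD, and the pericyte genes RGS5, PDGFRB and CSPG4. All 10 were found by gene ID among the 12383 genes of the deposited table. Skin was dissected from the black and from the yellow stripes of untreated embryos at day 7 of incubation, per the labels, with 2 libraries for each stripe and 4 embryos pooled in a library. The study compared gene expression between the stripes. The labels name neither breed nor sex.

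Smooth muscle cells contract when a muscle-type myosin pulls on actin filaments. Genes of this apparatus are switched on by the transcription factor SRF with its muscle-restricted partner myocardin. In birds, smooth muscle lies around the vessels of the dermis, and small bundles of it later link the feather follicles and move the feathers. Pericytes sit on capillaries and are drawn there by PDGF-B from the endothelium, which acts on the receptor PDGFRB. Of the pericyte genes here, PDGFRB is also known in other mesenchymal cells and CSPG4 in several progenitor cells, so neither marks pericytes alone.

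Each gene has 1 deposited value for each stripe, in RPKM, reads scaled to transcript length and to the number of mapped reads. No spread between libraries, SD or test could be computed, and the p- and q-values below are the authors' own. How the 2 libraries of a stripe entered them is not stated in the labels. The values are called those of black-labelled and yellow-labelled skin after the column names, because the pigment genes run against them: all 5 of TYR, TYRP1, DCT, PMEL and MLANA were higher in yellow-labelled skin, with a summed level of 532 RPKM against 142 RPKM in black-labelled skin. An exchange of the columns or of the stripes cannot be told apart from pigment genes that are higher in yellow stripes at this age, and with an exchange every direction given here would turn. Over the 10061 genes with a mean of both values of at least 1 RPKM, called measured here, the median log2 ratio of black-labelled over yellow-labelled was -0.00, with quartiles of -0.08 and 0.08. Of the 10 genes, 8 were measured, and CNN1 and LMOD1 lay below that floor. The tissue is bulk, so fewer cells of a type and less RNA per cell cannot be told apart.

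The contractile genes measured here and MYOCD were higher in yellow-labelled skin, by sizes from next to nothing (TAGLN) to 3.49-fold (MYH11), and the pericyte genes were split. MYH11 alone was past a q-value of 0.05 in the authors' deposited table. The 4 measured contractile genes were all higher in yellow-labelled skin, with a median log2 ratio of -0.49. Under the floor, at levels too low to read, CNN1 lay on the black-labelled side and LMOD1 on the yellow-labelled side. MYOCD had a log2 ratio of -0.46. Of the 3 pericyte genes 2 were higher in black-labelled skin, and their median was 0.15. Over the 8 measured genes the median log2 ratio was -0.23, with 6 higher in yellow-labelled skin, where 50.2% of all measured genes were higher. This median lay midway between the ratios of SMTN (-0.405) and RGS5 (-0.047), so leaving out any 1 gene moves it to one of these. It was -0.047 without MYH11 and equally so without ACTA2, and would be -0.405 without a pericyte gene or TAGLN. The difference between the contractile and pericyte genes could not be tested with 1 value per stripe. It was not seen in the wider lists described further on, where 21 other contractile genes had a median of 0.03 and 12 other pericyte genes one of -0.18.

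**Figure D1:**
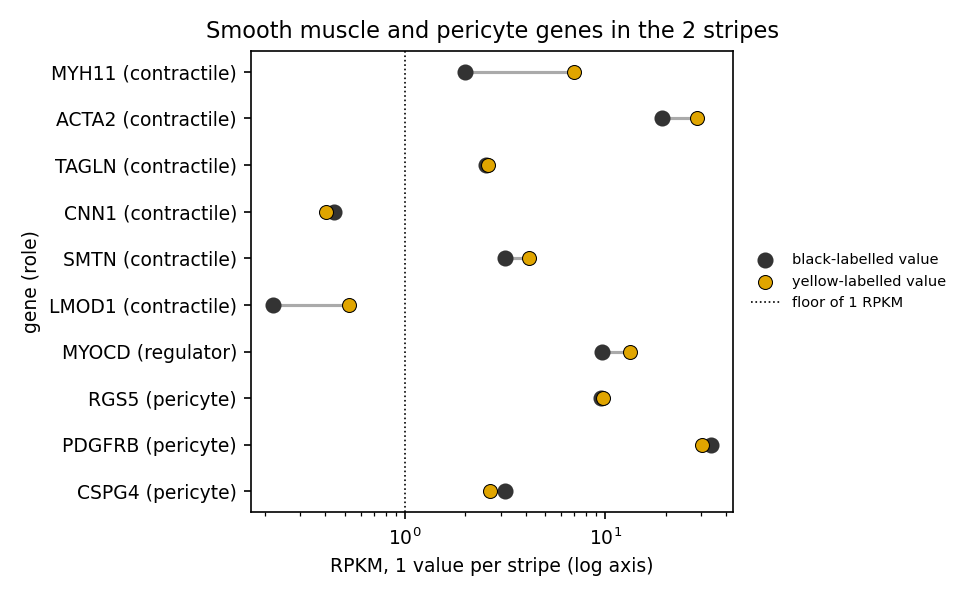
Level of each of the 10 genes in RPKM on a log axis, with 1 dark point for black-labelled and 1 yellow point for yellow-labelled skin. MYH11 has the widest gap among the genes above the dotted floor of 1 RPKM, at 2.00 and 6.97 RPKM, while the points of TAGLN and RGS5 nearly coincide.

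MYH11 encodes the smooth muscle myosin heavy chain, the motor of the contractile filament and a late marker of the differentiated cell. It had 2.00 RPKM in black-labelled and 6.97 RPKM in yellow-labelled skin. The ratio was 3.49-fold (log2 ratio -1.80), and the authors' deposited table gives p = 5e-05 and q = 0.0177, the lowest values it holds, which 30 genes share. By log2 ratio MYH11 was number 7 from the yellow-labelled end of the 10061 measured genes. Its level was modest, since 16.6% of measured genes had a lower mean. Among the 10 genes it was number 8 by level in black-labelled and number 5 in yellow-labelled skin.

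ACTA2 encodes smooth muscle alpha-actin, an early marker of smooth muscle that activated fibroblasts also make. It had 19.1 RPKM in black-labelled and 28.6 RPKM in yellow-labelled skin, and was next in level to PDGFRB in both. The ratio was 1.497-fold (log2 ratio -0.58), just short of 1.5-fold, a size it passed when both stripes were scaled to one upper quartile. The authors' deposited table gives p = 0.00865 and q = 0.575, so ACTA2 was not past the threshold. By log2 ratio it was number 112 from the yellow-labelled end. The difference of 9.50 RPKM was the widest in absolute level of the 10 genes, against 4.98 RPKM for MYH11.

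SMTN, smoothelin, an actin-binding protein of contractile smooth muscle, had 3.15 RPKM in black-labelled and 4.18 RPKM in yellow-labelled skin. Its log2 ratio was -0.41, with p = 0.349 in the authors' deposited table. TAGLN, transgelin or SM22-alpha, an actin-binding protein that usually appears early in smooth muscle, had 2.53 and 2.58 RPKM. Its log2 ratio was -0.03, within the quartiles of all measured genes. TAGLN therefore showed next to no difference between the stripe values in which MYH11 and ACTA2 differed, and its level was low beside that of ACTA2, at 0.133 of it in black-labelled and 0.0902 of it in yellow-labelled skin.

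CNN1, calponin, an inhibitor of the actomyosin motor, had 0.44 RPKM in black-labelled and 0.40 RPKM in yellow-labelled skin. LMOD1, leiomodin, which nucleates actin filaments in smooth muscle, had 0.22 and 0.52 RPKM. The authors' deposited table lists p = 1 for both. Levels this low, at an unknown depth, give no ground to read the 2.38-fold ratio of LMOD1 as a difference. Both genes were detected at values above 0, but these markers of contractile smooth muscle were close to the bottom of the scale in both stripes.

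MYOCD, myocardin, the SRF partner that switches on smooth muscle and cardiac genes, had 9.64 RPKM in black-labelled and 13.2 RPKM in yellow-labelled skin. The ratio was 1.37-fold (log2 ratio -0.46), with p = 0.0448 and q = 1 in the authors' deposited table, so it did not pass after adjustment. MYOCD was number 3 by level of the 10 genes in both stripes, above MYH11, SMTN and TAGLN. Per length it stood at 0.512 of the level of SRF in black-labelled and 0.629 of it in yellow-labelled skin. SRF itself had 18.8 and 21.0 RPKM.

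Among the pericyte genes, PDGFRB, the PDGF-B receptor, was the most abundant of the 10 genes. It had 33.6 RPKM in black-labelled and 30.4 RPKM in yellow-labelled skin, a log2 ratio of 0.15, with p = 0.454 in the authors' deposited table. RGS5, a regulator of G protein signalling and a marker of pericytes in embryonic vessels, had 9.45 and 9.77 RPKM. Its log2 ratio was -0.05, within the quartiles of all measured genes. CSPG4, the NG2 proteoglycan, had 3.16 and 2.64 RPKM, a log2 ratio of 0.26 with p = 0.299 in the authors' deposited table. By the authors' values, 0 of these 3 genes passed a q-value of 0.05 or a p-value of 0.05 before adjustment. Among all measured genes, 1.28% passed that p-value higher in yellow-labelled and 1.91% higher in black-labelled skin. For the q-value these shares were 0.169% and 0.179%. With shares this small, 0 of 3 does not set the pericyte genes apart. The p-values do not show that their levels were equal.

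**Figure D2:**
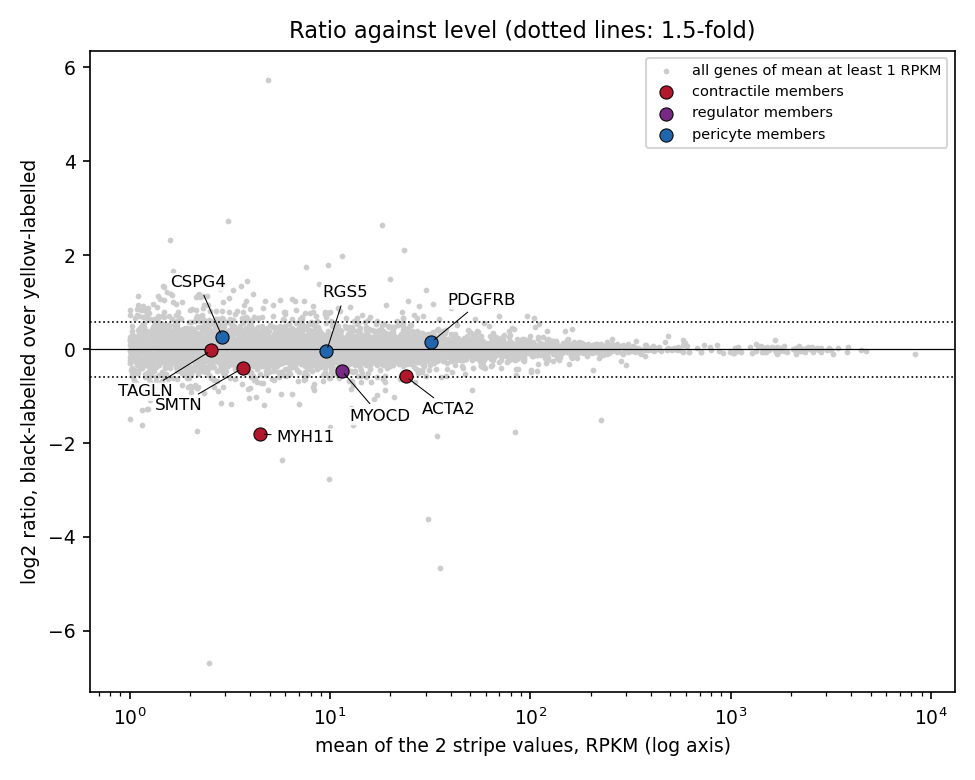
Log2 ratio of black-labelled over yellow-labelled against the mean level in RPKM (log axis), with the 10061 measured genes in grey and the 8 measured smooth muscle and pericyte genes in colour by role. MYH11 at -1.80 lies below most genes of its level, ACTA2 at -0.58 lies at the dotted 1.5-fold line, and the 3 pericyte genes lie between -0.05 and 0.26.

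Counts over the group read as follows against all measured genes. Past a q-value of 0.05 in the authors' deposited table and higher in yellow-labelled skin was 1 of 8 measured genes, MYH11, where 0.169% of all measured genes were. In the other direction it was 0 of 8, where 0.179% were. At an unadjusted p under 0.05 in the same table, 3 of 8 were higher in yellow-labelled skin (MYH11, ACTA2 and MYOCD), where 1.28% of all measured genes were, and 0 of 8 in black-labelled skin, where 1.91% were. At least 1.5-fold higher in yellow-labelled skin was 1 of 8, with a background of 1.08%, and in black-labelled skin 0 of 8, with a background of 1.78%. At a log2 ratio of at least 0.32 in size these counts were 4 of 8, adding ACTA2, SMTN and MYOCD, with a background of 3.93%, and 0 of 8, with a background of 5.31%. These members were chosen with earlier results of the same data known, so the counts describe them and are not an independent test. The same shares of all measured genes are the background for the counts of the further lists below.

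The contractile proteins belong to families with widely expressed members, and the shares within each family show where the muscle form stood. MYH9 and MYH10, the nonmuscle myosins of most cells, had 79.5 and 114 RPKM in black-labelled and 87.5 and 112 RPKM in yellow-labelled skin. MYH11 made up 1.03% of the summed level of the 3 genes in black-labelled and 3.38% in yellow-labelled skin, while the other two together had a log2 ratio of -0.05. The gap lay in the muscle form, and transcripts of the nonmuscle forms prevailed in both stripes.

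Among the muscle actins, ACTA2 took 49.6% of the summed level of ACTA1, ACTA2, ACTC1 and ACTG2 in black-labelled and 59.1% in yellow-labelled skin. ACTG2, the smooth muscle gamma-actin known from gut and bladder wall, had 12.1 and 11.8 RPKM. ACTA1, skeletal alpha-actin, had 6.75 and 7.89 RPKM. The other 3 muscle actins together had a log2 ratio of -0.03. Actin genes are very alike in sequence, and the labels do not say how reads that match several of them were assigned, so the split between them is uncertain. The cytoplasmic actins ACTB and ACTG1 were far above, at 700 and 1069 RPKM in black-labelled and 728 and 1092 RPKM in yellow-labelled skin.

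TAGLN held 1.85% of the summed level of the transgelins in black-labelled and 1.79% in yellow-labelled skin, with TAGLN2, the broadly expressed form, at 131 and 136 RPKM. TAGLN3, the neuronal form, had 3.47 and 6.34 RPKM, with p = 0.0147 and q = 0.762 in the authors' deposited table. CNN1 held 0.162% and 0.133% of the calponins, below CNN3 with 220 and 241 RPKM and CNN2 with 51.3 and 61.4 RPKM. MYOCD held 20.9% of its family in black-labelled and 26.2% in yellow-labelled skin, beside MKL1 (17.9 and 17.7 RPKM) and MKL2 (18.7 and 19.5 RPKM), the related SRF partners found in most cells. PDGFRB held 17.3% and 14.3% of the 2 PDGF receptors. PDGFRA, which marks dermal fibroblasts, had 160 and 183 RPKM.

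**Figure D3:**
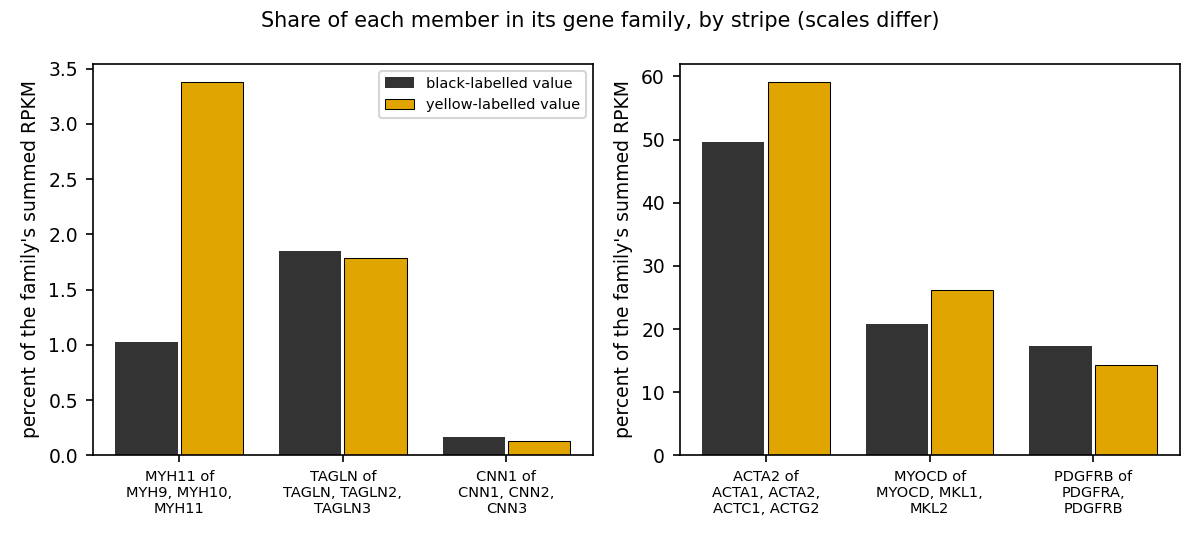
Percent of the summed RPKM of its gene family held by each of 6 genes, with dark bars for black-labelled and yellow bars for yellow-labelled skin (the left and right panels have different scales). MYH11 goes from 1.03% to 3.38% of its family and ACTA2 from 49.6% to 59.1% of the muscle actins, while TAGLN stays near 1.8%.

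The other genes of the contractile apparatus were split between the stripes. Of 26 further contractile and cytoskeletal genes 21 were measured, 10 of them higher in yellow-labelled and 11 in black-labelled skin, with a median log2 ratio of 0.03, and 0 were past a q-value of 0.05 in either direction. MYLK, the kinase that switches on smooth muscle myosin, had 23.4 RPKM in black-labelled and 31.7 RPKM in yellow-labelled skin. Its log2 ratio was -0.44, with p = 0.0566 in the authors' deposited table. This ratio, on the side of MYH11, was the one nearest the yellow-labelled end of the 21 genes and does not stand for them. The abundant CSRP2 (157 RPKM in black-labelled and 144 RPKM in yellow-labelled skin), TPM1 (113 and 133 RPKM) and CALD1 (111 and 109 RPKM) are made by many cell types. DES, desmin, an intermediate filament protein of muscle cells, ran against MYH11, with 2.94 RPKM in black-labelled and 1.36 RPKM in yellow-labelled skin. PGM5, a protein of muscle adhesions, did so too, with 12.0 and 6.95 RPKM. In the authors' deposited table DES has p = 0.00565 and q = 0.463, and PGM5 has p = 0.0018 and q = 0.216. These were the 2 genes of this list with an unadjusted p under 0.05 there, both higher in black-labelled skin, where 1.91% of all measured genes were.

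Of 25 further regulators 17 were measured, with a median log2 ratio of 0.02 and 0 past a q-value of 0.05. The authors' deposited table has 3 of them with an unadjusted p under 0.05, all higher in black-labelled skin, where 1.91% of all measured genes were. HEYL, a Notch target of vascular smooth muscle in mouse, had 28.4 RPKM in black-labelled and 17.9 RPKM in yellow-labelled skin. TBX18, a marker of mural cells in mouse, had 10.6 and 6.45 RPKM. FOXC2, a forkhead factor of vessel development, had 2.52 and 0.79 RPKM, with q = 0.0634. Its yellow-labelled value lay under 1 RPKM, so FOXC2 reached the floor, with a mean of 1.65 RPKM, only through its black-labelled value. Its place among the 3 genes is therefore less certain. MYOCD ran in the direction opposite to these 3 regulators. The list as a whole was split, with 7 of the 17 higher in yellow-labelled skin, as MYOCD was, and 10 in black-labelled skin.

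Of 20 further pericyte genes 12 were measured. Their median log2 ratio was -0.18, with 9 higher in yellow-labelled skin, and 0 reached an unadjusted p under 0.05 by the authors' deposited table. Of all measured genes 1.28% reached it higher in yellow-labelled and 1.91% higher in black-labelled skin. KCNJ8, a potassium channel subunit of pericytes, had 4.60 RPKM in black-labelled and 6.43 RPKM in yellow-labelled skin, and NDUFA4L2, a mitochondrial protein of pericytes, had 4.03 and 5.60 RPKM. MCAM, an adhesion protein of mural and endothelial cells, had 58.4 and 57.5 RPKM. This median lay on the other side of 0 from that of RGS5, PDGFRB and CSPG4.

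Of 23 signals and receptors that act on mural cells 20 were measured, with a median log2 ratio of -0.06 and 0 past a q-value of 0.05. PDGFB, the ligand that recruits pericytes through PDGFRB, had 2.52 RPKM in black-labelled and 3.84 RPKM in yellow-labelled skin, with p = 0.0826 in the authors' deposited table. PDGFD, the other ligand of PDGFRB, had 105 and 91.3 RPKM, so its level was 41.7 times that of PDGFB in black-labelled and 23.8 times in yellow-labelled skin. PDGFC, a ligand of PDGFRA, had 14.3 and 22.4 RPKM, with p = 0.0047 and q = 0.405 in the authors' deposited table.

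Markers of other cell types were read beside these genes. Of 20 endothelial markers 17 were measured, with a median log2 ratio of 0.00 and 0 past an unadjusted p of 0.05 in the authors' deposited table. Of all measured genes 1.28% passed it higher in yellow-labelled and 1.91% higher in black-labelled skin. The 19 endothelial markers with deposited values, those under the floor included, had a summed level of 217 RPKM in black-labelled and 212 RPKM in yellow-labelled skin. CDH5, the cadherin of endothelial junctions, had 38.8 RPKM in black-labelled and 35.8 RPKM in yellow-labelled skin. MYH11 had 0.0515 of the level of CDH5 in black-labelled and 0.195 of it in yellow-labelled skin. ACTA2 had 0.493 and 0.800 of it, and PDGFRB had 0.867 and 0.849 of it. Ratios to this 1 gene do not stand for all endothelial markers. Of the 17 measured endothelial markers 8 were higher in yellow-labelled and 9 in black-labelled skin. TEK had the largest ratio in size, with 5.38 and 7.14 RPKM (log2 ratio -0.41). Whether vessel content has a part in the gap of MYH11 was not tested. Fibroblast markers had a median of -0.04 over 19 measured of 20, and a summed level over all 20 of 3295 and 3230 RPKM.

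Of 21 skeletal and cardiac muscle markers 6 were measured, 4 higher in black-labelled and 2 in yellow-labelled skin. Their median log2 ratio was 0.62, on the side of 0 opposite to MYH11. ACTA1, with 6.75 RPKM in black-labelled and 7.89 RPKM in yellow-labelled skin, was among the 2 that ran with MYH11. The 16 markers of this list with deposited values, those under the floor included, had a summed level of 45.3 RPKM in black-labelled and 30.3 RPKM in yellow-labelled skin. The most abundant was TNNC1, the slow and cardiac troponin C, with 25.1 and 13.0 RPKM. The regulators MYOD1, MYOG and MYF5 were at most 0.14 RPKM in both stripes, and the cardiac factor NKX2-5 was listed at 0 in both. PAX7, however, had 4.25 RPKM in black-labelled and 2.01 RPKM in yellow-labelled skin, with p = 0.0004 and q = 0.0853 in the authors' deposited table. DES stands on this list too, and with TNNC1 and PAX7 made up the 3 members with an unadjusted p under 0.05 by the authors' deposited table, while 0 had a q-value under 0.05. All 3 were higher in black-labelled skin, where 1.91% of all measured genes were at that p and 0.179% at that q-value. The pigment genes were higher in yellow-labelled skin, as their sums above show. They share this direction with MYH11 and with 50.2% of all measured genes. The part of any of these cell types in the differences was not tested.

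**Figure D4:**
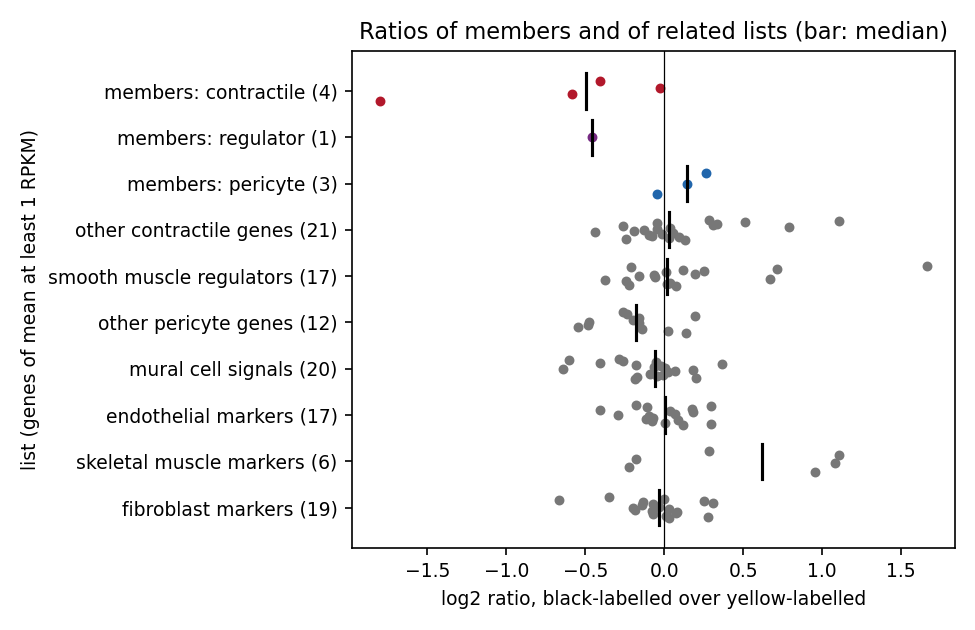
Log2 ratio of black-labelled over yellow-labelled for each measured gene (points) and the median (bars) of the smooth muscle and pericyte genes by role and of 7 related lists, with the number of genes in brackets. The contractile genes have a median of -0.49 and the pericyte genes of 0.15, while the other pericyte genes have one of -0.18. The other contractile genes (0.03) and endothelial markers (0.00) centre near 0, and the skeletal muscle markers have a median of 0.62.

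In the RefSeq annotation of Coturnix japonica 2.1, RGS5 lies beside RGS4, a related regulator with 4.93 and 5.51 RPKM, and PDGFRB beside CSF1R, the receptor of macrophages, with 5.82 and 5.23 RPKM. The neighbours of ACTA2 were STAMBPL1 (7.33 and 7.54 RPKM) and FAS (2.84 and 2.34 RPKM). For MYH11 the neighbour NDE1 had 15.8 RPKM in black-labelled and 14.7 RPKM in yellow-labelled skin, so it did not share the gap. CEP20, the neighbour on the other side, had no value under that name among the genes used here. In that annotation MYH11 overlaps a long noncoding RNA gene and SMTN overlaps SELENOM. Only the spans of whole genes were compared, and the labels do not say whether reads were counted by strand. Whether these overlaps affect the values of MYH11 and SMTN was therefore not tested. CNN1 is not placed on a chromosome there.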

How the data were processed

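Skin of the black and yellow stripes was sequenced in 4 libraries. The submitters' processing notes name TopHat2 2.1.1 and Cufflinks 2.2. For genome build, annotation, strand setting and the combination of libraries, nothing is given in the sources used here. The deposited RPKM values, computed by the authors, are 1 per stripe, per the file headers. The deposited p-values and q-values are the authors' own, and the deposited log2 ratios lay within 0.01 of those computed here for all 10 genes. A further 2 value columns that carry no stripe name were not used. From 12419 rows, 11 with a date as ID and 25 with repeated transfer RNA IDs were left out. Log2 ratios were computed without a pseudocount (Python 3.11.15, pandas 2.3.3, numpy 2.4.6). A gene counted as measured where its mean over the 2 stripes reached 1 RPKM, and was called at the authors' q-value under 0.05. No statistical test was run here. The code that makes calls and medians was checked on a simulated table with known answers. Depth is unknown, since 452 genes with low values in both stripes (above 0, below 0.1 RPKM) gave 378 different ratios and no common step. Symbols of all 10 genes matched RefSeq (Coturnix japonica 2.1). No sequence was used here.

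Members and 11 lists were chosen with earlier results of these data known. Of each list the text names genes past the q-value threshold, the 3 most abundant or the 3 with the largest ratios, or some of these. Further genes (SRF, MKL1, MKL2, MYH9, MYH10, ACTG2, TAGLN2, CNN2, MYLK, MYOD1, MYOG, MYF5, NKX2-5 and neighbours) were added for comparison after their values were seen. Alternatives covered pseudocounts, scaling, floors and thresholds.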

Additional observations from a re-analysis of the deposited data

How the results depend on the processing

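No paired analysis was possible because each stripe has 1 deposited value, and for the same reason no library could be left out. The log2 ratio of each of the 8 measured genes kept its direction, and stayed within 1.5 times its value, in all 32 alternatives with pseudocounts of 0.1 or 1 RPKM or scaling to one median or upper quartile, though no pseudocount can reverse a ratio, and scaling shifted all genes by only 0.00 and -0.01 on the log2 scale. The count of 1 gene at least 1.5-fold apart became 2 when scaled to one upper quartile (ACTA2 passed), 2 with no floor (LMOD1 passed), 0 at a floor of mean 5 RPKM (MYH11 has a mean of 4.49 RPKM) and 4 at a log2 ratio of at least 0.32 in size. The count of 1 gene past the authors' q-value of 0.05 became 0 at that floor, 0 at a q-value under 0.01, below the lowest q in the table, and 3 at the authors' unadjusted p under 0.05. The median log2 ratio of -0.23 rests on few genes. It was -0.047 without MYH11 and -0.047 without ACTA2, alternatives chosen after seeing the data. These 2 genes are not particular in this, since the median lay midway between SMTN (-0.405) and RGS5 (-0.047). Leaving out any 1 gene moves it to one of these values, nearer to 0 or further from it. Alternatives on protein identity and promoter motifs were not run. The unknown depth limits what can be read from genes under 1 RPKM.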

Other observations

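Of 23 genes that set smooth muscle tone 19 were measured, with a median log2 ratio of black-labelled over yellow-labelled of -0.01 and 0 past a q-value of 0.05. RYR2, a calcium release channel of heart and smooth muscle, had 1.56 RPKM in black-labelled and 2.78 RPKM in yellow-labelled skin, with p = 0.0006 and q = 0.107 in the authors' deposited table. RGS2, a regulator of the same family as RGS5, had 33.9 and 47.6 RPKM, with p = 0.0291 in the authors' deposited table. AGTR1, an angiotensin receptor that mural cells express, ran the other way with 3.04 and 1.36 RPKM. The authors' deposited table gives it p = 0.0028 and q = 0.275. RHOA, the GTPase upstream of contraction, had 427 RPKM in both values.

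Of 22 genes of vessel wall matrix and its integrins 21 were measured, with a median log2 ratio of 0.12 and 0 past a q-value of 0.05. MFAP4, a microfibril protein that smooth muscle makes, had 84.0 RPKM in black-labelled and 118 RPKM in yellow-labelled skin, with p = 0.0243 in the authors' deposited table. ITGA8, an integrin subunit of smooth muscle and other mesenchyme, had 20.1 and 13.9 RPKM, with p = 0.0113 in the authors' deposited table. Both had q-values above 0.05 there.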
